A study of Mus musculus with 6 samples.

Results

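Genes of the mitochondrial carrier family were followed in primary cultured renal tubule epithelial cells (RTECs) of the mouse, with or without transforming growth factor β1 (TGF-β1). Members were all protein-coding genes whose symbol begins with Slc25a, together with the uncoupling protein genes Ucp1, Ucp2 and Ucp3, which belong to the same family by structure. By this rule 50 of the 46517 genes in the count data were members. The rule uses symbols alone, although the family was taken up with earlier results of these data known. RTECs came from kidneys of wild type FvB mice, aged 4 to 6 weeks by the labels, while the study's methods give a somewhat younger range and male mice. All 6 cultures were grown in medium with serum, EGF and insulin-transferrin-selenium and then kept without serum for 24 h. The 3 TGF-β1 cultures then received 50 ng/ml TGF-β1 for 24 h, and the 3 control (CTL) cultures were the untreated group. Poly(A) RNA of each culture was sequenced as 1 library. The labels do not say whether the cultures came from separate animals, so p-values measure the spread between these cultures, which may in part be technical.

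Mitochondrial carriers are small proteins, each built of repeats of the same fold. Most sit in the inner mitochondrial membrane and exchange a metabolite, nucleotide or cofactor between cytosol and matrix. They feed and drain the respiratory chain and the tricarboxylic acid cycle: adenine nucleotide carriers trade ADP for ATP, the phosphate carrier brings in phosphate for ATP synthase, and the carnitine carrier brings in fatty acids for oxidation. The study dealt with how TGF-β1 and Notch signalling alter mitochondria and metabolism of RTECs in kidney fibrosis, and the kidney tubule is among the tissues that rely most on fatty acid oxidation. Slc25a17 is a member by symbol although its protein sits in peroxisomes.

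Total counts on genes ranged from 28313080 to 34183497 per library. Tubule epithelial markers (Epcam, Cdh16, Cdh1, Pax8, Krt8 and Krt18) were all detected, and summed to 960 to 2553 CPM in CTL cultures and to 839 to 2109 CPM after TGF-β1. CPM here are counts scaled to the library total and by a factor from the trimmed mean of M-values (TMM). Of this list Cdh16 and Pax8 were past the threshold and lower with TGF-β1. The defining proximal tubule transporters Slc34a1, Slc5a2 and Slc22a6 were at or below 0.344 CPM in every library, and of the 5 proximal tubule markers with enough counts Ass1 was called higher and Lrp2 lower. Adipocyte markers summed to at most 0.207 CPM and endothelial markers to at most 2.58 CPM, and leukocyte markers summed to 4.86 to 16 CPM in CTL and 5.23 to 15 CPM in TGF-β1 libraries. Of 6 fibroblast and pericyte markers, Postn and Pdgfrb were well above background. They made up nearly all of the summed list (533 to 785 CPM in CTL and 527 to 989 CPM with TGF-β1). Dcn was 1.04 to 12.3 CPM, and Lum, Col6a3 and Pdgfra were at most 2.22 CPM in any library. The podocyte list summed to 72.6 to 142 CPM in CTL and 62.3 to 99 CPM with TGF-β1. The loop of Henle and distal tubule list summed to 497 to 565 and 518 to 536 CPM, nearly all of it Wnk1, and the collecting duct list to at most 1.55 CPM. In such bulk cultures, fewer cells of a type and less RNA per cell cannot be told apart. Both libraries with replicate number 2 stood apart from the other 4: Epcam was 53.5 to 63.3 CPM in them and 163 to 288 CPM elsewhere, and transcripts of 4 Y-linked genes summed to at least 142 CPM in them and at most 0.172 CPM elsewhere, so these 4 libraries go against the sex stated in the methods. Cultures with the same replicate number deviated together, so the number may pair them. The main fit and the permutation tests do not use it. Results are also given with the number as a block and without both replicate 2 cultures.

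Of the 50 members, 44 had enough counts to be tested, and the fold changes of most were small. Slc25a13 and Slc25a35 were lower and no member was higher at an adjusted p-value under 0.05 (edgeR quasi-likelihood test, Benjamini-Hochberg over 15862 genes). At an unadjusted p-value under 0.05 there were 10 members (22.7%, beside 28.6% of all genes), and DESeq2 called 1 higher and 4 lower (11.4%, beside 15.0% of all genes). The 2 calls are 4.55% of the members tested, and 11.7% of all genes tested were called, of which 5.00% were higher and 6.69% were lower. Among genes with a mean of at least 10 CPM the share called was 12.7%, and 1 of the 33 members at that level was called. The median log2 fold change was -0.027 over the 44 members and -0.0028 over all genes. The median size of the change, without its sign, was 0.092 over members and 0.17 over all genes. A log2 fold change within 0.2 of 0 was found for 29 of the 44 members (65.9%) and for 55.2% of all genes.

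With the replicate number as a block, 3 members were higher and 7 were lower, or 22.7% of those tested, beside 34.2% of all genes (15.1% higher and 19.1% lower). The 8 members added by the block were Ucp2, Slc25a1 and Slc25a29, which were higher, and Slc25a12, Slc25a15, Slc25a21, Slc25a30 and Slc25a48, which were lower. Without both replicate 2 cultures and without the block, 4 members were called (Slc25a13, Slc25a35 and Slc25a30 lower, Ucp2 higher), beside 14.9% of all genes. CTL and TGF-β1 levels did not overlap for 12 of the 44 members (27.3%), 3 of them higher and 9 lower with TGF-β1, and for 35.1% of all genes. All 3 same-numbered pairs moved in 1 direction for 24 members (54.5%), 8 up and 16 down, beside 63.0% of all genes. By these counts the members' share was below that of all genes, with no test made of that difference. It was not below it in every fit: with the block and without both replicate 2 cultures 14 of 44 members (31.8%) were called beside 31.4% of all genes, and without TGF-β1 replicate 3, unblocked, 3 of 44 (6.82%) beside 6.03%.

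**Figure D1:**
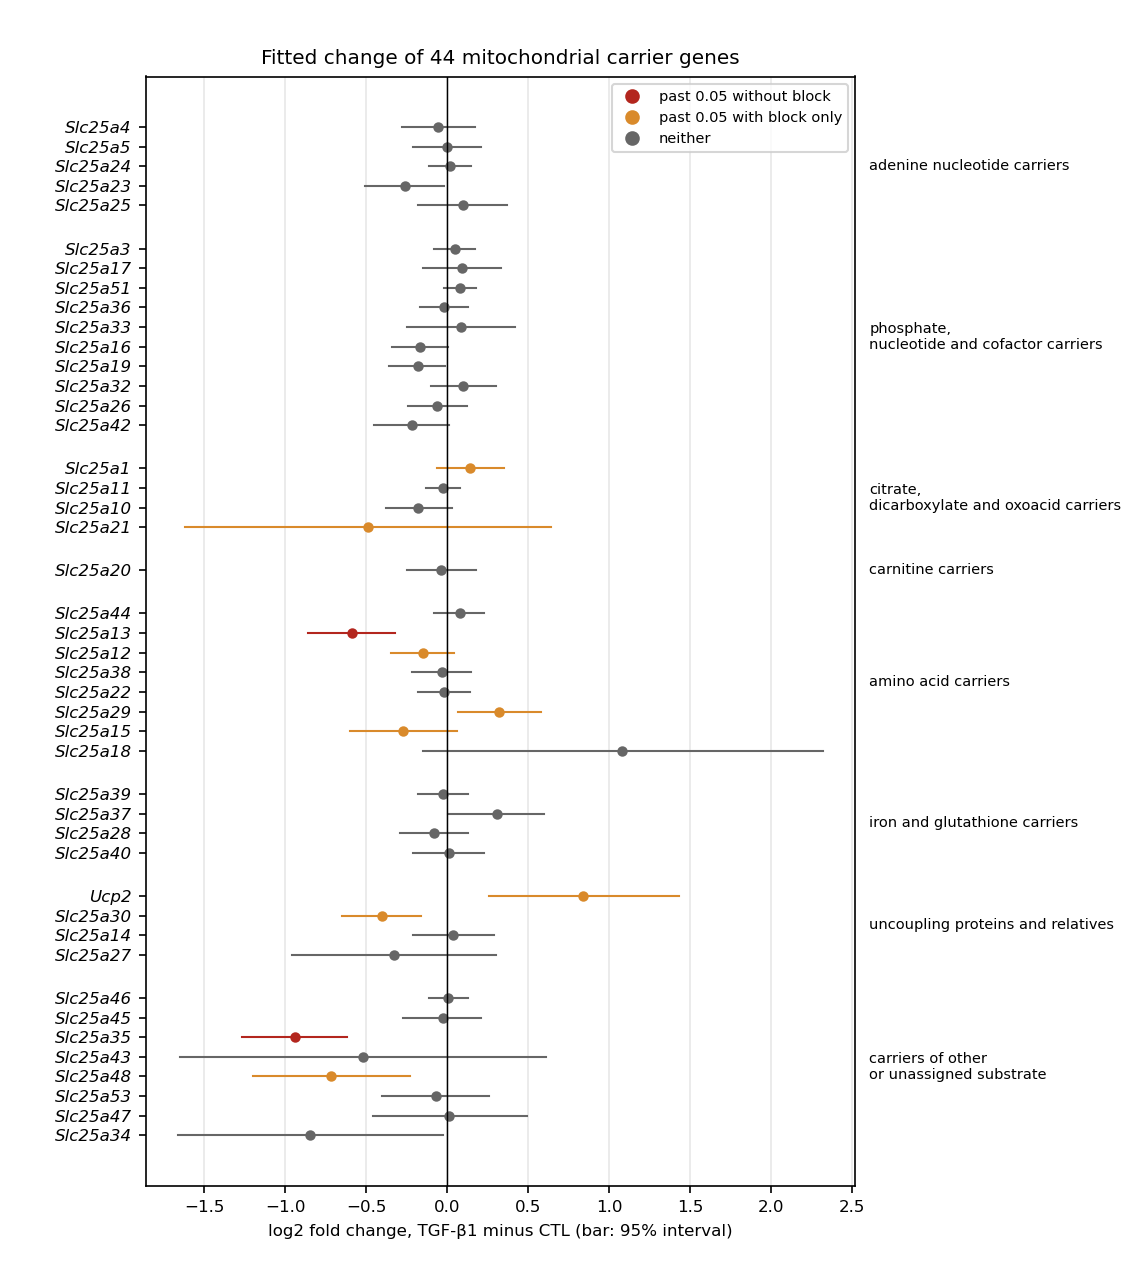
Fitted log2 fold change (TGF-β1 minus CTL, x axis) of the 44 tested members, grouped by class (y axis), from the fit without the block. Points are estimates and bars their 95% intervals; colours mark the 2 genes past the threshold in that fit and the 8 past it with the replicate block only. Most estimates sit within 0.2 of 0.

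The adenine nucleotide and phosphate carriers, which serve ATP synthesis directly, were the most abundant. On the scale of CPM per kb of exon (all annotated exons of a gene merged), Slc25a4, the adenine nucleotide translocator of heart and muscle, led with a mean of 145 over the 6 libraries. The phosphate carrier Slc25a3 followed with 80.8, the second translocator Slc25a5 with 79.4, the citrate carrier Slc25a1 with 41.7 and the ATP-Mg/phosphate carrier Slc25a24 with 38.9. The malate-oxoglutarate carrier Slc25a11 (38.9) and Slc25a39 (38.8) were level with Slc25a24, and in CTL both had the higher mean (39.3 ± 0.429 and 39.1 ± 1.22, SD, n = 3). Slc25a3 and Slc25a5 did not differ beyond their spread (79.4 ± 2.57 and 79.4 ± 8.25, SD, n = 3, in CTL), and Slc25a24 (38.7 ± 1.91) and Slc25a1 (39.7 ± 3.84) did not either. The order depended on the length used: per kb of the principal transcript, a scale chosen after the values were seen, Slc25a3 led with 278, ahead of Slc25a4 with 177 and Slc25a5 with 105, and Slc25a39 with 63.4 and Ucp2 with 61 came next. Many exon bases of Slc25a3 lie outside its principal transcript of 1612 bases (5550 bases of merged exon). For Slc25a5, 46.6% of the 50-base windows of its transcript also occur in transcripts of other genes, among them the copies Gm5560 and Gm5529. Reads from such windows align to more than 1 place and were not counted, so its level is uncertain and can be too low.

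**Figure D2:**
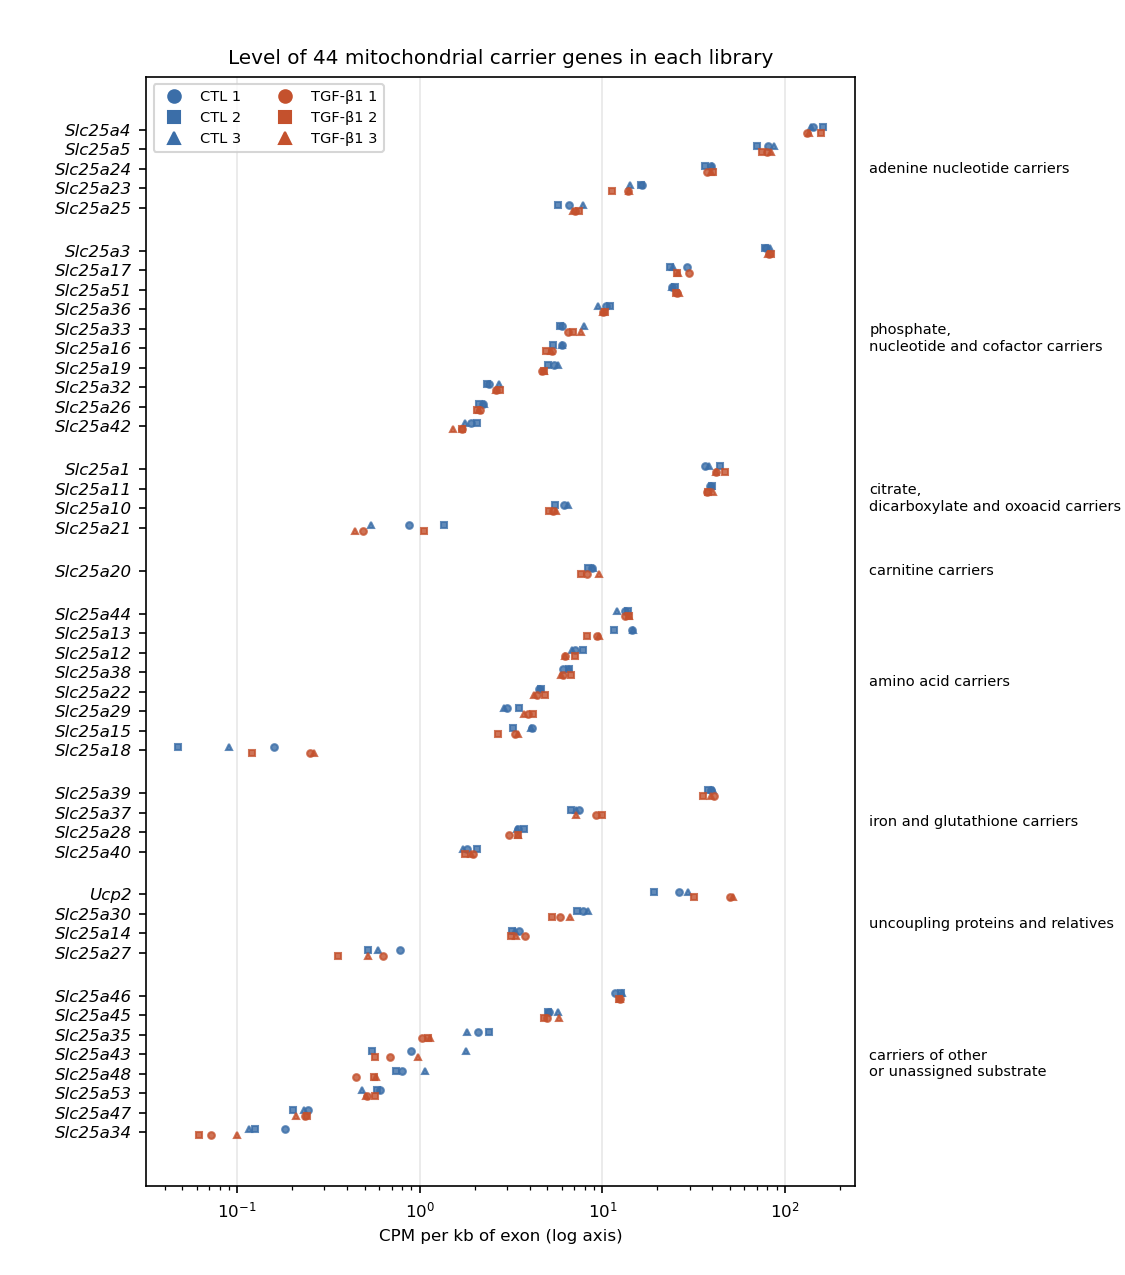
Level of each of the 44 tested members in each of the 6 libraries, in CPM per kb of exon on a log axis, grouped by class. Blue symbols are CTL and red symbols TGF-β1 libraries, with 1 shape per replicate number. Slc25a4 has the highest mean (145), and for most members the colours lie on each other.

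Slc25a4 stood at 334, 379 and 328 CPM in CTL and at 312, 372 and 317 CPM in TGF-β1 libraries. Slc25a5 stood at 133, 116 and 143 CPM and at 131, 123 and 138 CPM. Slc25a3 stood at 436, 430 and 457 CPM and at 454, 466 and 447 CPM. The groups overlapped for each of these genes, and replicate 2 was the highest library for Slc25a4 and the lowest for Slc25a5 in both groups. Their log2 fold changes were -0.057 for Slc25a4 (95% interval -0.28 to 0.17), 0.001 for Slc25a5 (-0.21 to 0.21) and 0.047 for Slc25a3 (-0.079 to 0.17), with adjusted p-values of 0.742, 0.997 and 0.605 (edgeR). Scaling by library size alone put Slc25a5 at -0.072 and Slc25a3 at -0.027, so that neither has a direction here.

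The calcium-regulated ATP-Mg/phosphate carriers adjust the adenine nucleotide pool of the matrix. Slc25a24 was 135, 125 and 137 CPM in CTL and 129, 139 and 135 CPM with TGF-β1. Slc25a23 was 86.8, 86.6 and 75.4 CPM in CTL and 73.5, 60 and 73.6 CPM with TGF-β1, without overlap. Its log2 fold change was -0.26 (95% interval -0.51 to -0.021) with an adjusted p-value of 0.147 without and 0.0586 with the block (edgeR). Of the 7 adenine nucleotide carriers, 5 were tested and none was past the threshold with edgeR in either fit or with DESeq2. Over all genes 11.7% were called without the block, 34.2% with it and 15.0% by DESeq2. At these shares, no call among so few members says little of the class. Slc25a23 was the only member of the class at an unadjusted p-value under 0.05 (0.0374, edgeR), beside 28.6% of all genes. The other members of the class, the testis translocator Slc25a31 and Slc25a41, had at most 3 counts in any library.

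The class of phosphate, nucleotide and cofactor carriers had 10 members, all tested, the peroxisomal Slc25a17 among them. The others import what the matrix needs for ATP synthesis, mitochondrial DNA and RNA, and enzymes that use thiamine pyrophosphate, folate, coenzyme A, S-adenosylmethionine or NAD. No member of the class was past the threshold with edgeR in either fit or with DESeq2, and 1 was at an unadjusted p-value under 0.05. The log2 fold changes ran from -0.22 to 0.10 with a class median of 0.014. The shares over all genes were 11.7% and 34.2% (edgeR without and with the block), 15.0% (DESeq2) and 28.6% (unadjusted, edgeR). The pyrimidine nucleotide carriers Slc25a33 and Slc25a36 were at 11.4, 11.1 and 14.9 CPM in CTL against 12.2, 13 and 14.4 CPM, and at 100, 105 and 91.2 CPM in CTL against 96.3, 99.1 and 97 CPM. Their adjusted p-values were 0.733 and 0.866 (edgeR).

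Among the carriers of citrate, dicarboxylates and oxoacids, Slc25a1 exports citrate from the matrix for fatty acid synthesis. It was 79, 95.1 and 83.4 CPM in CTL and 91.1, 102 and 91 CPM in TGF-β1 libraries, and the groups overlapped because CTL replicate 2 was high. Within replicate numbers it was higher each time, by log2 ratios of 0.21, 0.11 and 0.12. The fitted change was 0.14 ± 0.086 (SE) with an adjusted p-value of 0.332 without the block and 0.14 ± 0.044 with an adjusted p-value of 0.036 with it (edgeR). The malate-oxoglutarate carrier Slc25a11, a part of the malate-aspartate shuttle, was 82.3, 84.1 and 83.5 CPM against 79.7, 80.4 and 85.1 CPM, with an interval of -0.13 to 0.081 around -0.027. The dicarboxylate carrier Slc25a10 was 21.4, 18.9 and 22.4 CPM against 18.5, 17.7 and 19.2 CPM, with a log2 fold change of -0.18 and adjusted p-values of 0.233 without and 0.0706 with the block (edgeR).

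Slc25a21, the oxodicarboxylate carrier, differed more between replicate numbers than between the groups. It was 4.27, 6.62 and 2.62 CPM in CTL and 2.37, 5.14 and 2.16 CPM in TGF-β1 libraries, with replicate 2 the highest in both groups. The log2 ratios within replicate numbers were -0.85, -0.37 and -0.27. Its adjusted p-value was 0.546 without and 0.0331 with the block (edgeR, log2 fold change -0.49 ± 0.46 and -0.49 ± 0.15, SE). Leaving out single cultures without the block moved the value from -0.10 (without CTL replicate 2) to -1.0 (without TGF-β1 replicate 2), with adjusted p-values of 0.209 to 0.916 (edgeR). Without the replicate 1 pair the blocked value was -0.33 with an adjusted p-value of 0.276. Pax9 shares 3.88% of the exon bases of Slc25a21 on the opposite strand and was at most 0.702 CPM.

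The carnitine carrier Slc25a20, which brings acylcarnitines into the matrix, stood at 42.7, 40.6 and 43.2 CPM in CTL and at 39.9, 37 and 46.2 CPM with TGF-β1. The groups overlapped, with TGF-β1 replicate 3 the highest of all libraries. Its log2 fold change was -0.039 with a 95% interval of -0.25 to 0.18 and an adjusted p-value of 0.817 (edgeR). A fall of more than 0.25 on the log2 scale lies outside that interval.

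The amino acid carriers held the better expressed of the 2 called members. Slc25a13 encodes citrin, an aspartate-glutamate carrier of the malate-aspartate shuttle and of the urea cycle. The gene (GRCm38, chr6:6041218-6217173, minus strand) stood at 55.1, 44.1 and 56 CPM in CTL and at 35.3, 31.2 and 36.6 CPM in TGF-β1 libraries. Every TGF-β1 library was below every CTL library, and replicate 2 was the lowest of each group. The log2 fold change was -0.59 ± 0.11 (SE, 95% interval -0.86 to -0.32, 1.5-fold lower) at an adjusted p-value of 0.0256 by edgeR, and the log2 ratios within replicate numbers were -0.64, -0.50 and -0.61. With the block the adjusted p-value was 0.00013, and without both replicate 2 cultures the value was -0.63, at an adjusted p-value of 0.00298 by edgeR. With single cultures left out the value kept to -0.69 to -0.53. The adjusted p-value was then 0.112 without CTL replicate 1, 0.0637 without CTL replicate 3, and 0.0948, 0.0616 and 0.0553 without TGF-β1 replicates 1, 2 and 3, and 0.0151 without CTL replicate 2 (edgeR).

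The 250 bases before the start of Slc25a13 (RefSeq, GRCm38.p6, chr6:6217174-6217423, minus strand, written 5′ to 3′ along the gene) are shown because the gene is called and well expressed. Capitals mark an E box (CACGTG) and a CCAAT box (CCAAT), searched on both strands.

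Slc25a13: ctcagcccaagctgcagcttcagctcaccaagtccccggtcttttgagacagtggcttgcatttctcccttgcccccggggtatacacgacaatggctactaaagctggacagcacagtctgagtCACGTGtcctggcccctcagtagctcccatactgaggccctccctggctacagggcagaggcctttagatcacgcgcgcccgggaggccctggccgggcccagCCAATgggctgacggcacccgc

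The E box letters occurred in 6.02% and the CCAAT letters in 33.8% of all 32851 promoter windows of this length. Of the 49 windows of the 39 members that had one, 16.3% and 42.9% held them. The windows of members were richer in G and C (median 57.6%, beside 52.4% over all windows). None of the 49 held the SMAD palindrome GTCTAGAC or the element of the estrogen-related receptors TCAAGGTCA, which occurred in 0.167% and 0.387% of all windows. The core letters of RBPJ, the DNA-binding partner of Notch (GTGGGAA), were in 1 member window, that of Slc25a22, and in 5.42% of all windows. None of these motifs contains another, and a match or its absence says nothing of binding.

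Slc25a12, the paralog of Slc25a13 known as aralar, had a smaller fitted change. It was 52.3, 57.7 and 49.9 CPM in CTL and 45.7, 52.2 and 45.8 CPM with TGF-β1, and the groups overlapped. Its log2 fold change was -0.15 ± 0.081 (SE) with an adjusted p-value of 0.272, and with the block -0.15 ± 0.046 with an adjusted p-value of 0.0341 (edgeR). Whether Slc25a13 fell more than Slc25a12 was addressed by the ratio of both in each library, among the ratios of relatives.

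Slc25a15, the ornithine carrier of the urea cycle, was 23.1, 18.2 and 23 CPM in CTL and 18.7, 15.1 and 19.5 CPM with TGF-β1. The groups overlapped, and the ratio was below 0 within every replicate number (-0.30, -0.27 and -0.24, log2). The adjusted p-value was 0.255 without and 0.0108 with the block (edgeR, log2 fold change -0.27). Slc25a29, which carries basic amino acids, was 7.81, 9.11 and 7.58 CPM in CTL and 10.2, 10.9 and 9.64 CPM with TGF-β1, without overlap. Its log2 fold change was 0.32 ± 0.11 (SE), with adjusted p-values of 0.106 without and 0.0181 with the block (edgeR). Of the class, 8 of 9 members were tested, and the glutamate, glycine and branched-chain amino acid carriers Slc25a22, Slc25a38 and Slc25a44 lay between -0.035 and 0.077. Slc25a18, another glutamate carrier, was counted 10, 3 and 5 times in CTL and 15, 7 and 17 times with TGF-β1. That depth left it an interval of -0.15 to 2.32. Slc25a2, the second ornithine carrier, had 5, 5 and 3 counts in CTL and 1, 0 and 1 with TGF-β1, which was too low to be tested.

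Iron reaches the matrix through the mitoferrins Slc25a37 and Slc25a28, and glutathione through Slc25a39 and Slc25a40. Slc25a37 was 44.9, 40.4 and 42.9 CPM in CTL and 55.6, 59.6 and 43.3 CPM with TGF-β1. Replicates 1 and 2 were above all CTL libraries while TGF-β1 replicate 3 lay within their range. The log2 fold change was 0.31 (95% interval 0.0078 to 0.60) with adjusted p-values of 0.167 without and 0.0583 with the block (edgeR). Without TGF-β1 replicate 3 the adjusted p-value was 0.0384 at a value of 0.43, and without each of the other 5 cultures it was 0.274 to 0.36. The value was 0.20 without TGF-β1 replicate 2, and without both replicate 2 cultures it was 0.17 (adjusted p-value 0.418, edgeR). Slc25a28 was 12.9, 14 and 12.7 CPM in CTL and 11.5, 13 and 13 CPM with TGF-β1. Slc25a39 was 109, 104 and 111 CPM in CTL and 112, 97.6 and 109 CPM with TGF-β1, and Slc25a40 was 15.2, 17.2 and 14.5 CPM against 16.5, 14.8 and 16 CPM. The adjusted p-values of these 3 genes were 0.59, 0.842 and 0.948 (edgeR).

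The uncoupling proteins let protons or anions pass the inner membrane. Ucp1, the uncoupling protein of brown fat, had 1 to 3 counts in each library, and Ucp3, that of muscle, had 1, 1 and 0 counts in CTL and 5, 1 and 9 with TGF-β1. Neither was tested. Ucp2 was the most abundant of the class, at 24.9 ± 5.25 CPM per kb of exon in CTL and 44.7 ± 11.3 in the treated cultures (SD, n = 3). It stood at 184, 134 and 205 CPM in CTL and at 349, 222 and 365 CPM with TGF-β1, so that every treated culture was above every CTL culture, and replicate 2 was the lowest of each group. Within replicate numbers the log2 ratios were 0.93, 0.73 and 0.83. The fitted log2 fold change of 0.84 ± 0.24 (SE, 1.79-fold higher) had an adjusted p-value of 0.0765 without the block, and 0.83 ± 0.05 had one of 2.16e-05 with it (edgeR). Leaving out both replicate 2 cultures gave 0.88 with an adjusted p-value of 0.00239, and leaving out TGF-β1 replicate 2 alone gave 1.03 with 0.0404 (edgeR). With each of the other 5 cultures left out singly the value was 0.68 to 0.98, at adjusted p-values of 0.0978 to 0.208 (edgeR). Dnajb13, which shares 305 exon bases with Ucp2 on the opposite strand (4.36% of the exon bases of Ucp2), was at most 0.738 CPM.

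Slc25a30, known as kidney mitochondrial carrier protein, is a relative of the uncoupling proteins. It was 35.7, 33.1 and 38.3 CPM in CTL and 26.8, 24.1 and 30.3 CPM with TGF-β1, without overlap. The log2 ratios within replicate numbers were -0.42, -0.46 and -0.34. The log2 fold change of -0.40 ± 0.10 (SE, 95% interval -0.65 to -0.16) had an adjusted p-value of 0.0548 without and 0.000925 with the block (edgeR). Without TGF-β1 replicate 3 the adjusted p-value was 0.0474, and without each of the other 5 cultures 0.0703 to 0.181 (edgeR). Without both cultures of replicates 1, 2 and 3 in turn it was 0.445, 0.0385 and 0.0973 (edgeR). For the remaining relatives the log2 fold change was 0.037 (Slc25a14) and -0.33 (Slc25a27), at adjusted p-values by edgeR of 0.852 and 0.464.

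The 250 bases before the starts of Ucp2 (RefSeq, GRCm38.p6, chr7:100493108-100493357, plus strand) and Slc25a30 (chr14:75787038-75787287, minus strand) are set side by side because both belong to 1 class and had fold changes of opposite sign. Capitals mark the SMAD element CAGACA, the GC box GGGCGG and the CCAAT box, each on either strand.

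Ucp2: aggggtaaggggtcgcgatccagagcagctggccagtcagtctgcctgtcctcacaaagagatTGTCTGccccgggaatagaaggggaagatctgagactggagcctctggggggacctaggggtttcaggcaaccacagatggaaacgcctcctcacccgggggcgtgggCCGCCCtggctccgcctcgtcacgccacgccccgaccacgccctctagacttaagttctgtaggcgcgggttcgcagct

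Slc25a30: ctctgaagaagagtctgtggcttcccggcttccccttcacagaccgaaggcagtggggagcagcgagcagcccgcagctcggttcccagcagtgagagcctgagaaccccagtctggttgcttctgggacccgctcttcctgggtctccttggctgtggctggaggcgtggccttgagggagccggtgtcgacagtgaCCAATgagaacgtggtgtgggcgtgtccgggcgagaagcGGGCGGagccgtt

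Ucp2 held the SMAD element, read from the opposite strand, and a GC box, and Slc25a30 held a CCAAT box and a GC box. The SMAD element occurred in 6.12% of member windows and 17.1% of all windows, and the GC box in 67.3% and 32.7%. Besides Ucp2, the SMAD element was found before Slc25a24 and Slc25a28, whose log2 fold changes were 0.02 and -0.081.

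Of the 9 carriers with another or no assigned substrate, 8 were tested. Slc25a35 (GRCm38, chr11:68968131-68974365, plus strand) was the member with the largest change among those called. It stood at 7.69, 8.78 and 6.68 CPM in CTL and at 3.79, 4.06 and 4.18 CPM in TGF-β1 libraries, well apart. The log2 fold change was -0.94 ± 0.13 (SE, 95% interval -1.27 to -0.62, 1.92-fold lower) with an adjusted p-value of 0.0117 without and 0.000718 with the block (edgeR), and the log2 ratios within replicate numbers were -1.02, -1.11 and -0.68. Without both replicate 2 cultures the value was -0.85, at an adjusted p-value of 0.0169 by edgeR. The call was lost without CTL replicate 1 (adjusted p-value 0.0659) or TGF-β1 replicate 1 (0.0597), at log2 fold changes of -0.95 and -0.90. Of its exon bases, 31.3% are also exons of Rangrf on the opposite strand, and 90.7% of the exon bases of Rangrf are exons of Slc25a35. Rangrf was listed at 0 in 5 of the 6 libraries. Reads that touched more than 1 gene were not counted, and the strand setting of the counting is not given in the sources used here. How many reads of the shared stretch were left out is therefore unknown. The level of Slc25a35 is uncertain to that extent and can be too low.

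Slc25a48 was 2.71, 2.49 and 3.58 CPM in CTL and 1.51, 1.9 and 1.93 CPM with TGF-β1, without overlap. Its log2 fold change was -0.72 ± 0.20 (SE), with adjusted p-values of 0.0709 without and 0.0112 with the block (edgeR). Slc25a54 had at most 2 counts in any library. With the block but without the replicate 1 pair, Slc25a1, Slc25a12, Slc25a15, Slc25a21, Slc25a29 and Slc25a48 were no longer past the threshold (adjusted p-values 0.0978 to 0.354, edgeR), while Ucp2, Slc25a13, Slc25a30 and Slc25a35 were.

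**Figure D3:**
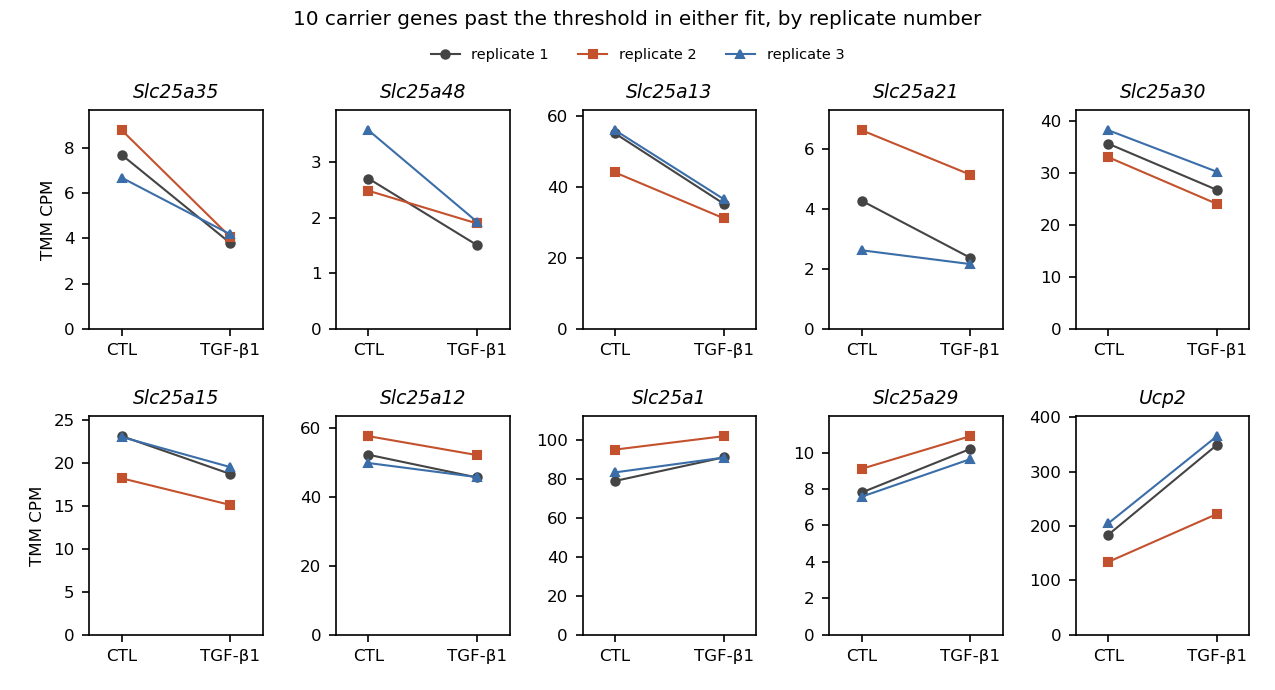
TMM-scaled CPM (y axis, from 0) of the 10 members past the threshold in either fit, in CTL and TGF-β1 cultures (x axis). Each line joins the cultures of 1 replicate number. Lines slope the same way in every panel, while replicate 2 starts apart from the others for Ucp2, Slc25a13, Slc25a15 and Slc25a21.

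The 34 members called in neither fit had log2 fold changes from -0.85 to 1.08. For the 27 of them with a mean of at least 10 CPM the range was -0.26 to 0.31, and for 25 of these the 95% interval lay within 0.5 of 0 on either side. The interval bound farthest from 0 among the 27 was 0.60. Changes larger than that were therefore outside the intervals of these 27, which leaves out the better expressed members that were called. Of the rarer ones called in neither fit, Slc25a34, Slc25a43, Slc25a18 and Slc25a27 had intervals wider than 1 log2 unit. Those of Slc25a14, Slc25a53 and Slc25a47 were narrower than that.

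Related carriers were set against each other as the log2 ratio of their counts in each library, which needs no scaling between libraries. Slc25a12 over Slc25a13, corrected for exon length, was -1.03, -0.56 and -1.12 in CTL and -0.58, -0.21 and -0.63 in TGF-β1 libraries. CTL replicate 2 lay within the range of the TGF-β1 libraries. The ratio was higher with TGF-β1 within each replicate number (by 0.45, 0.35 and 0.49, mean 0.43 ± 0.071, SD, n = 3). The two-sided exact permutation test, which ignores the numbers, gave p = 0.3, or 0.6 adjusted over the 6 ratios tested. With 3 cultures a group this test cannot go below 0.1.

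The mitoferrin ratio Slc25a37 over Slc25a28 differed by 0.38 between the group means (pairs 0.47, 0.67 and -0.016, exact permutation p = 0.3). The ratio Slc25a24 over Slc25a23 differed by 0.29 (pairs 0.17, 0.68 and 0.0091, exact permutation p = 0.2). Both therefore moved little in replicate 3. For Slc25a4 over Slc25a5, Slc25a33 over Slc25a36 and Slc25a39 over Slc25a40 the differences were -0.063, 0.11 and -0.041, with exact permutation p-values of 0.6, 0.6 and 0.7 and adjusted p-values of 0.7.

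**Figure D4:**
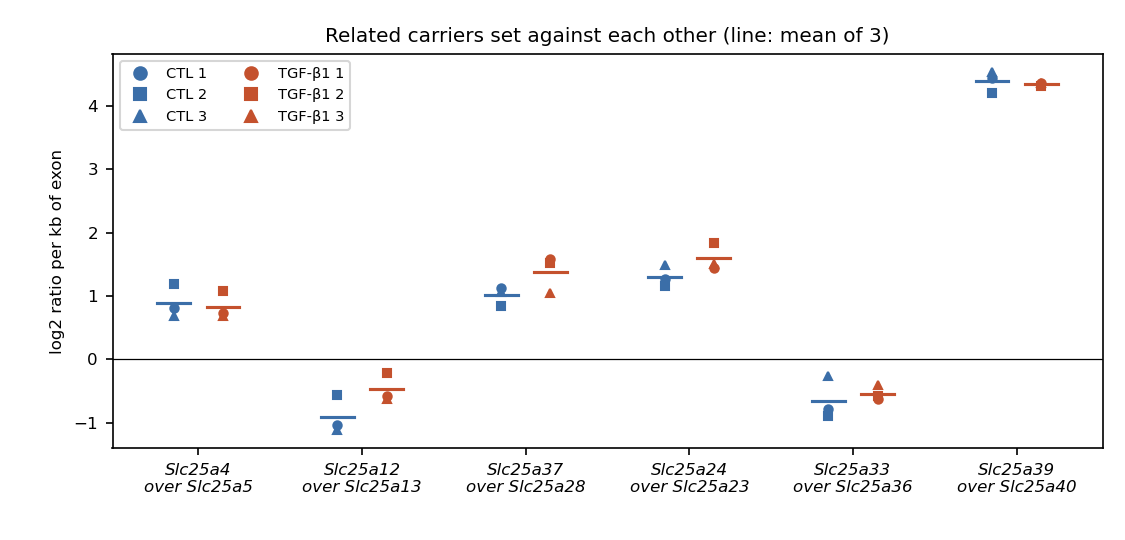
Log2 ratio of 6 pairs of related carriers per kb of exon (y axis) in each library, blue for CTL and red for TGF-β1, with 1 symbol per replicate number and a line at the mean of 3. The ratio Slc25a12 over Slc25a13 has a mean of -0.90 in CTL and -0.47 with TGF-β1, and groups overlap.

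The summed level of all 50 members was 2559, 2506 and 2599 CPM in CTL and 2680, 2607 and 2706 CPM in TGF-β1 libraries. The groups did not overlap and the means differed by 4.29%, with an exact permutation p of 0.1, the smallest that 3 against 3 cultures allow. Scaled by library size alone the difference was -0.894% (exact permutation p = 0.7), so the sum has no direction that holds under both scalings. Ucp2 carried the difference: without it, a sum made after the values were seen, the other 49 members stood at 2376, 2372 and 2393 CPM in CTL and at 2331, 2385 and 2341 CPM with TGF-β1, a difference of -1.19% (exact permutation p = 0.3). Without Slc25a3, Slc25a4 and Slc25a5 the difference was 6.61% and the groups overlapped (exact permutation p = 0.3), and for the sum of CPM per kb of exon it was 1.66% (exact permutation p = 0.2). Slc25a3, Slc25a4 and Slc25a5 made up 36% ± 0.825 of the sum in CTL and 34.6% ± 2.01 with TGF-β1 (SD, n = 3).

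Other genes around the carriers were read from lists put together for this purpose. Their counts stand beside 11.7% of all genes called without the block, 34.2% with it and 15.0% by DESeq2. Of 25 other transporters of mitochondrial membranes (pyruvate carriers, porins, sideroflexins, the calcium uniporter and its partners, ABC transporters), none was past the threshold with edgeR without the block (6 at an unadjusted p-value under 0.05), and 2 were higher and 6 lower with it. DESeq2 called 2 higher and 1 lower, and the median log2 fold change was -0.056. Mtch1, an outer membrane relative of the carriers, is named after its values were seen. It was 226, 264 and 226 CPM in CTL and 329, 431 and 310 CPM with TGF-β1, and had a log2 fold change of 0.58 with an adjusted p-value of 0.05, just outside the threshold, without and 0.000225 with the block (edgeR).

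Of 26 enzymes and partners that make or use what the carriers move, 23 were tested, 2 were higher and 2 were lower. Acly, which splits exported citrate into acetyl-CoA, was 397, 360 and 371 CPM in CTL and 598, 553 and 535 CPM with TGF-β1, a log2 fold change of 0.58 at an adjusted p-value of 0.00728 (edgeR). Ass1, the urea cycle enzyme that joins citrulline and aspartate and a marker of the proximal tubule, was 60.4, 77.3 and 68.4 CPM in CTL and 125, 195 and 127 CPM with TGF-β1 (log2 fold change 1.12, adjusted p-value 0.0228, edgeR). Both were thus higher in every treated library.

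Arg2, the mitochondrial arginase that makes ornithine, was 7.53, 4.4 and 5.06 CPM in CTL and 0.674, 0.556 and 1.04 CPM with TGF-β1 (log2 fold change -2.89, adjusted p-value 0.00647, edgeR). Mdh1, the cytosolic malate dehydrogenase of the malate-aspartate shuttle, had a log2 fold change of -0.21 (adjusted p-value 0.045, edgeR). These genes were the lower ones. Among 12 regulators of mitochondrial gene expression, Foxo1 was higher (log2 fold change 0.37, adjusted p-value 0.0354) and Pparg was lower (-0.90, adjusted p-value 0.0343, edgeR), and with the block 2 were higher and 3 lower. With the block, the enzyme list had 3 higher and 7 lower.

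Of 93 nuclear-encoded genes taken by symbol for the respiratory chain and ATP synthase, 87 were tested. Not all are subunits: the symbols also took in assembly factors of complex I, such as Ndufaf1 and Ndufaf2. None was higher and 1 was lower with edgeR and with DESeq2 alike (10 at an unadjusted p-value under 0.05 with edgeR), and with the block 3 were higher and 3 lower. The lower one with edgeR was Ndufa1, a subunit of complex I, at 29.5, 28.8 and 30.6 CPM in CTL and 22, 25.4 and 23 CPM with TGF-β1 (log2 fold change -0.34, adjusted p-value 0.0351, edgeR). The median log2 fold change of the 87 was 0.027, beside -0.027 for the carriers, and 80 of the 87 were within 0.2 of 0.

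**Figure D5:**
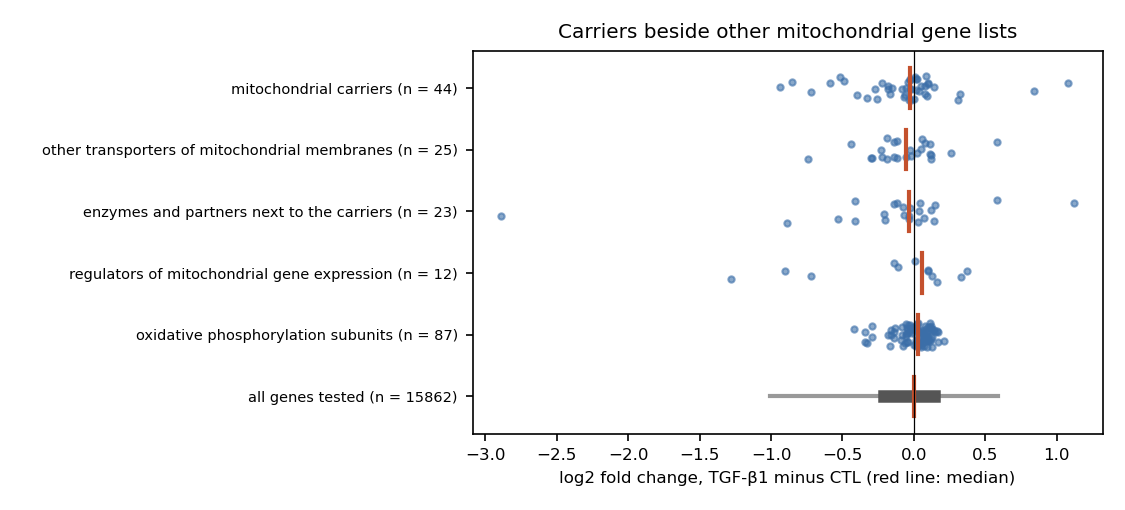
Log2 fold changes (TGF-β1 minus CTL, x axis) of the tested carriers and of 4 other gene lists, 1 point per gene, with a red line at the median. The list of oxidative phosphorylation subunits also holds assembly factors of complex I. The bottom row gives all 15862 genes tested, with the thick bar from the 25th to the 75th and the thin bar from the 5th to the 95th percentile. Medians of all lists lie between -0.056 and 0.053.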

How the data were processed

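RNA sequencing of 3 CTL and 3 TGF-β1 cultures of RTECs was analysed from counts per gene, which the authors deposited after trimming 50-base single-end reads with Trim Galore, aligning them to GRCm38 with STAR 2.4.1d and counting with HTSeq 0.6.1. The deposited counts are whole reads without normalization. Reads that aligned to more than 1 place (18.73% to 19.37%) or touched more than 1 gene (1.88% to 1.97%) were not counted on genes by the authors, and rows that name no gene were left out here. Groups and replicate numbers were read from sample titles and descriptions. The members, classes and other gene lists were chosen with earlier results of these data known.

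Symbols, positions and exon lengths came from GENCODE M21 (46005 of 46517 identifiers matched without version), and promoter sequences from RefSeq. Counts were fitted in R 4.3.3 with edgeR 4.0.16 (filterByExpr, TMM, robust glmQLFit and a two-sided glmQLFTest). P-values were adjusted after Benjamini and Hochberg for the 15862 genes tested, and 0.05 was the threshold. F statistics gave the standard errors. Single values were compared by exact permutation tests (scipy 1.17.1), with 0.5 added to counts in ratios. The models were tested on simulated counts without an effect of the replicate number, so that test does not bear on the pairing of cultures. A count of 3 corresponds to 0.0878 to 0.106 CPM, which covers counting error only.

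Deviations from the group mean of same-numbered cultures correlated at 0.34, 0.684 and 0.572 over 15862 genes, and others at -0.617 to 0.215. The numbers, given in the sample titles, were therefore used as a block in a further fit, while the main fit was unpaired. Named were members past the threshold without or with the block, the 5 with the highest level per kb of exon, 12 picked by role and the 6 pairs of relatives. Of the other lists, genes past the threshold were named. 2 genes of these lists are not reported here and were left out of their lists' counts and sums. The fits were repeated with the block, with other filters and scalings (RLE, library size), with cultures left out and in DESeq2 1.42.0. Principal transcript length and the sum without Ucp2 were added after the data had been seen.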

Additional observations from a re-analysis of the deposited data

How the results depend on the processing

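The number of members past the threshold was 0 higher and 2 lower, and it was 3 and 7 with the replicate block and 1 and 4 with DESeq2, which also called Ucp2, Slc25a30 and Slc25a48. Library size alone and no filter beyond 1 count each gave 0 and 3. Scaled by library size alone, calls over all genes were 508 higher and 1467 lower, beside 793 and 1061 with TMM, the median of members was -0.10 beside -0.077 for all genes, and the summed level differed by -0.894% in place of 4.29%. That scaling also put Slc25a24 at -0.054, Slc25a3 at -0.027, Slc25a40 at -0.061 and Slc25a5 at -0.072, and the filter of 10 counts in every sample put Slc25a5 at -0.0034. None of these 4 was past the threshold, and of the 24 named members with a test, 16 kept their direction under every alternative.

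With cultures left out, singly or in same-numbered pairs and with or without the replicate block, the members called ranged from 0 to 4 higher and 0 to 11 lower, and their share was below that of all genes in 9 of the 12 fits, above it in 2 and 0 for both in 1. The median log2 fold change of members ranged from -0.056 to -0.015. Without both cultures of replicate 1 no gene of 15961 was called by edgeR (1938 at an unadjusted p-value under 0.05), so this says nothing of the members. The summed level differed by 3.31% to 5.42% with single cultures left out, by 6.61% without Slc25a3, Slc25a4 and Slc25a5, by 1.66% per kb of exon and, chosen after seeing the data, by -1.19% without Ucp2. The ratio differences ranged from 0.30 to 0.60 for Slc25a12 over Slc25a13, 0.16 to 0.38 for Slc25a24 over Slc25a23, -0.012 to 0.30 for Slc25a33 over Slc25a36, 0.27 to 0.54 for Slc25a37 over Slc25a28, -0.14 to 0.031 for Slc25a39 over Slc25a40 and -0.19 to 0.086 for Slc25a4 over Slc25a5. Of named members whose sign changed, the values ran from -0.13 to 0.025 for Slc25a20, -0.046 to 0.064 for Slc25a24, -0.074 to 0.025 for Slc25a36, -0.06 to 0.027 for Slc25a39, -0.15 to 0.012 for Slc25a4, -0.048 to 0.13 for Slc25a40 and -0.078 to 0.069 for Slc25a5. The cause of these shifts was not tested. Depth limited the 6 members that could not be tested and the rare ones named with wide intervals.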

Other observations

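Several carriers differed between replicate number 2 and the other cultures in the same direction in both groups. Slc25a18, Slc25a43, Ucp2, Slc25a27 and Slc25a15 were below both other libraries of their group. On the log2 scale, against the mean of the other 2 libraries, Slc25a43 was -1.30 in CTL and -0.55 with TGF-β1, and Slc25a15 was -0.34 in each group. Slc25a21 was above both others in each group, by 0.94 in CTL and 1.18 with TGF-β1. Slc25a1, Slc25a4, Slc25a12 and Slc25a29 were above as well, by 0.14 to 0.24. These genes are named after their values were seen. No test was made, because both replicate 2 cultures also differed from the others in Y-linked transcripts and in some epithelial markers. Epcam, Cdh1, Krt8 and Krt18 were lower in both than in any other library, while Pax8 and Cdh16 were not. The part of these markers and transcripts in the differences of the carriers was not tested.

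Slc25a43 and Slc25a5 lie near each other on the X chromosome (GRCm38, chrX:36743659-36777202 and chrX:36795651-36798807). Slc25a43 was 1.59, 0.972 and 3.2 CPM in CTL and 1.22, 1.01 and 1.75 CPM with TGF-β1, so its spread between CTL cultures was wider than the difference between the groups.

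Ppargc1a, the coactivator of mitochondrial biogenesis, had the largest change on the list of regulators and is named after its values were seen. It was 9.67, 12.4 and 5.99 CPM in CTL and 2.69, 6.05 and 2.88 CPM with TGF-β1 (log2 fold change -1.28, adjusted p-value 0.101 without and 0.000821 with the replicate block, edgeR), and 1 library of each group overlapped. The lists of carriers and of respiratory chain genes had medians of -0.027 and 0.027, beside -0.0028 over all genes. A link between these values and Ppargc1a was not tested.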
